A study of Mus musculus with 73 samples.

Results

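The transcripts of 38 genes of DNA damage signalling and repair were followed by RNA-seq in 8 libraries of cultured mouse embryos. The genes were taken by name, as genes of the ATR, ATM, homologous recombination, Fanconi and end-joining pathways. Earlier results of these data were known when they were chosen. All 38 were found among the 25220 gene symbols measured. For the description below, 12 were placed in the ATR checkpoint, 10 in ATM and break signalling, 6 in homologous recombination, 4 in the Fanconi pathway and 4 in end joining. The other 2, Parp1 and Rad18, were kept apart.

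All embryos had a hybrid C57BL/6 / C3H background and were grown in KSOM, a medium for preimplantation embryos, and total RNA was taken from embryo lysates. At the 8-cell stage 3 libraries came from EGFP embryos and 3 from p150DN embryos, and 2 more came from EGFP blastocysts. CAF-1, chromatin assembly factor 1, deposits histones H3 and H4 behind the replication fork; p150 is its large subunit and p150DN a dominant-negative form of that subunit. EGFP embryos were the controls, and no untreated embryos enter the comparisons. The route and dose by which these embryos received EGFP or p150DN, and the number of embryos per library, are not given in the labels of the RNA samples; for 2-cell embryos of the series they name mRNA injected into the cytoplasm at the 1-cell stage. Chaf1a, the gene of p150, stood at 165, 254 and 238 FPKM with p150DN and 27.7, 30.2 and 28.8 FPKM with EGFP at the 8-cell stage, so the libraries separate as labelled. Reads of introduced p150DN and of the embryo's own Chaf1a cannot be told apart.

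The damage response rests on a pair of related kinases. ATR is recruited to single-stranded DNA at stalled replication forks and acts through the kinase CHEK1, whereas ATM is activated at double-strand breaks and acts through CHEK2. Breaks are then rejoined by end joining or copied from the sister DNA by homologous recombination, and crosslinked DNA is handled by the Fanconi pathway. Cleaving embryos depend first on RNA and protein laid down by the oocyte and then on transcripts of their own genome.

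Expression is given as FPKM, the fragments of a gene divided by its length and by the library total, which is comparable between genes of different length. The libraries held 16578221 to 22488477 counted fragments, and the 38 genes rested on 180 to 41235 fragments each per library, with Wrn the most thinly covered and Rif1 the most deeply covered. Differences are given on the log2(FPKM + 1) scale ± SE, which understates changes of weakly expressed genes. A gene was called when its limma p-value, adjusted by the method of Benjamini and Hochberg over all tested genes, was below 0.05. The labels do not say that replicates came from separate cultures, so the spread behind each p-value is that between libraries and may be technical. The 2 comparisons share the EGFP 8-cell libraries, so their values are set side by side and not counted as independent.

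Summed trophectoderm markers were higher in both comparisons, and other marker lists were less clear with p150DN. The summed level of 10 trophectoderm markers was 104 to 121 FPKM in EGFP 8-cell libraries, 399 to 665 in p150DN libraries and 1352 to 1376 in blastocysts. Of the 8 tested, 7 were called higher in p150DN, where 24.6% of all tested genes were. The summed level of 10 oocyte and polar body markers was 80.4 to 99.3, 38.3 to 85.4 and 11.0 to 11.9 FPKM in the same order. Markers of cumulus and granulosa cells (10 genes) and of sperm (8 genes) summed to at most 2.24 and 2.41 FPKM in any library, and all 10 of the first list stayed below 1 FPKM in every library. Markers of the inner cell mass (10 genes) summed to 470.2 to 699.6 FPKM, 644 to 916 and 1049 to 1091 in the order of groups above, and those of the 2-cell stage (8 genes) to 7.65 to 19.7, 2.53 to 16.7 and 0.46 to 0.94. In p150DN embryos 5 of 9 tested inner cell mass markers were called higher and 1 lower. Of 9 tested oocyte and polar body markers 2 were called lower, where 9.68% of all tested genes were, and of 4 tested 2-cell markers 0 were called. None of these markers was at 0 in every library. Genes above 0 FPKM numbered 17310 to 18402 in EGFP 8-cell libraries, 18412, 20465 and 21282 in p150DN replicates 1, 2 and 3, and 18991 and 18547 in blastocysts. The part of these differences in the results below was not tested, and fewer cells of a type and less RNA per cell cannot be told apart in whole embryos.

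In EGFP 8-cell embryos the 38 transcripts spanned about 2 orders of magnitude. Parp1, whose product marks DNA nicks and breaks with ADP-ribose chains, was highest at 174 ± 16.1 FPKM (mean ± SD, n = 3), followed by Rif1 at 148 ± 11.6 and Chek2 at 103 ± 7.33. The helicase gene Wrn was lowest at 1.48 ± 0.0462 FPKM, below Prkdc at 2.99 ± 0.0590 and Atr at 3.27 ± 0.436. Of the neighbours in this order, Chek2 and Brca2 (94.8 ± 3.95 FPKM) overlapped between libraries, as did Parp1 and Rif1, and Prkdc and Atr. Levels varied widely within a pathway: Atr stood beside its activator gene Topbp1 at 88.9 ± 5.32 FPKM, and Palb2 at 4.57 ± 0.615 beside Brca2.

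**Figure D1:**
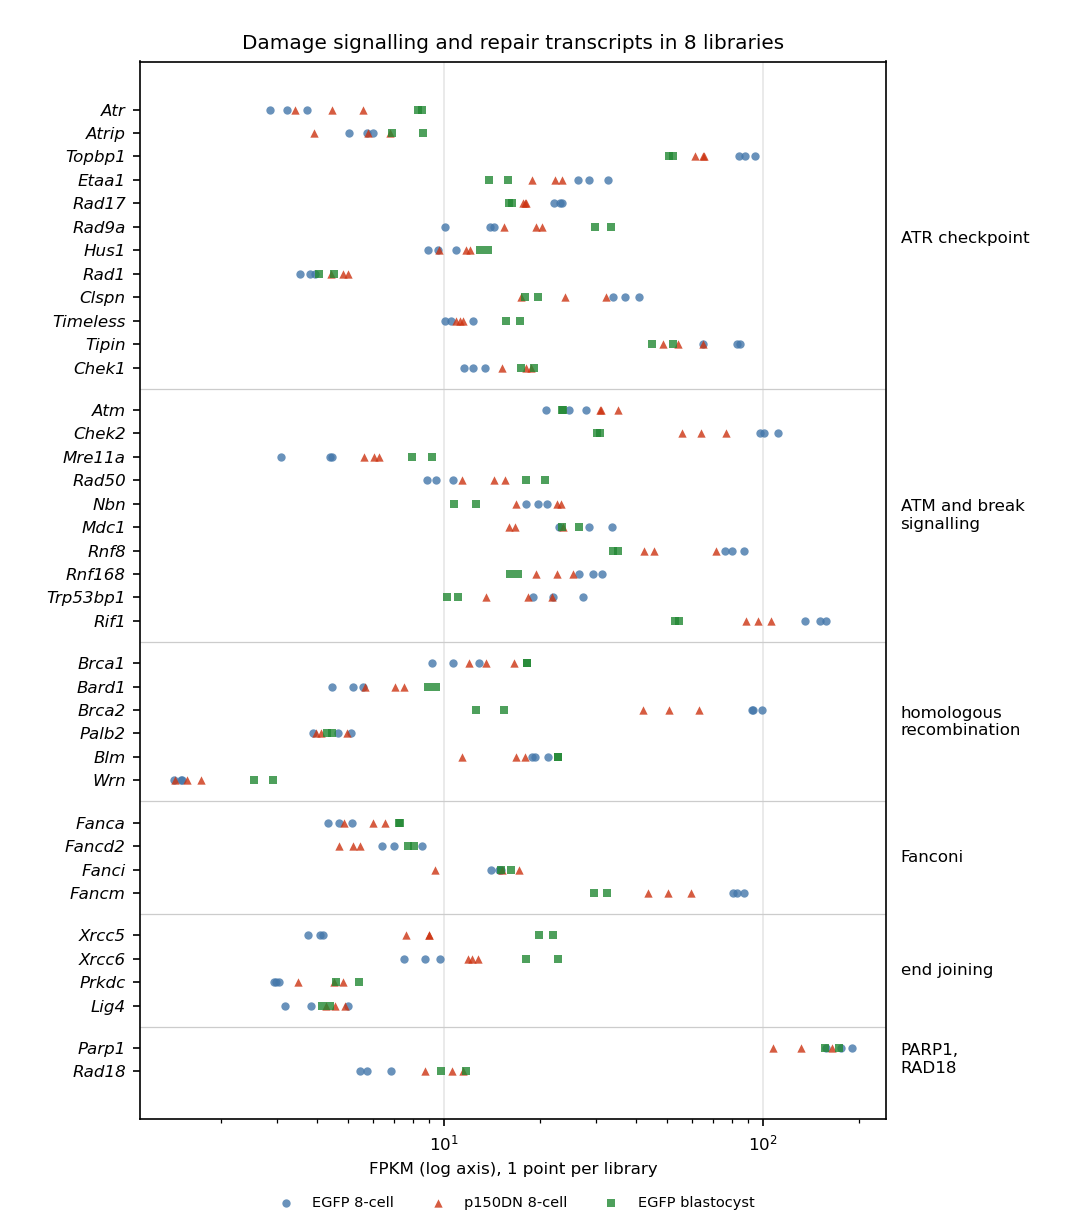
FPKM (log axis) of the 38 genes in each of the 8 libraries, 1 point per library, with genes ordered by pathway and symbols marking the groups. Brca2, Chek2, Rif1 and Fancm are the genes whose EGFP 8-cell points lie far to the right of the blastocyst points, and Xrcc5 is the gene with the widest gap in the other direction.

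In p150DN against EGFP 8-cell embryos, 13 of the 38 genes were called (34.2%), against 34.3% of all 11730 tested genes, so the share of damage response genes that changed was near the background. The direction was less like the background: 4 genes rose (10.5%, against 24.6% of all genes) and 9 fell (23.7%, against 9.68%). As the 38 genes were chosen with earlier results known, this split describes the list and was not tested. Of 114 tested genes in a wider list of the same pathways, 21.1% rose and 5.26% fell. The libraries of the 2 groups did not overlap for 24 of the 38 genes, against 49.8% of all genes. The median difference of the 38 genes was -0.01, beside 0.19 over all tested genes. Those that fell were Topbp1, Clspn and Tipin of the ATR checkpoint, Chek2, Mdc1, Rnf8 and Rif1 of break signalling, Brca2 of homologous recombination and Fancm of the Fanconi pathway. Those that rose were Chek1, the end-joining genes Xrcc5 and Xrcc6, and Rad18. The count varied with the library left out. Without EGFP replicates 1, 2 and 3 in turn, 6, 8 and 8 genes were called. Without p150DN replicates 1, 2 and 3 in turn, 9, 14 and 6 were called. Over all tested genes the same runs gave 2441, 2964 and 3040, then 4053, 4071 and 2610, against 4023 with every library. Leaving out p150DN replicates 2 and 3, the libraries with the most genes above 0, leaves 1 p150DN library, which has no spread of its own. The median difference of the 38 genes was then 0.04, beside 0.13 over all tested genes.

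These calls depended in part on scaling. FPKM holds the total of each library fixed, and under median-of-ratios scaling and quantile normalization the median over all genes moved from 0.19 to -0.06 and -0.04. All genes then split into 1709 higher and 2241 lower, or 1748 and 1827, in place of 2887 and 1136. The 38 genes split into 1 higher and 16 lower, or 1 and 10. Xrcc5 was the 1 gene that stayed higher under both, while Chek1, Xrcc6 and Rad18 were no longer called. Chek2, Rif1, Brca2 and Fancm were called lower under all 16 alternative settings, and no called gene changed direction in any of them.

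From EGFP 8-cell embryos to EGFP blastocysts, 28 of the 38 genes were called (73.7%), against 67.5% of all 12199 tested genes. Of these, 15 rose (39.5%, against 42.6% of all genes) and 13 fell (34.2%, against 24.9%). Libraries of the stages did not overlap for 31 of the 38 genes, against 79.6% of all genes. The median difference was 0.10, beside 0.28 over all genes. The fall of Brca2 and the rise of Xrcc5 were the largest. Under median-of-ratios scaling and quantile normalization the 38 genes split into 10 higher and 13 lower, or 6 and 14, and all genes into 4229 and 3774, or 3997 and 3902, in place of 5198 and 3038.

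**Figure D2:**
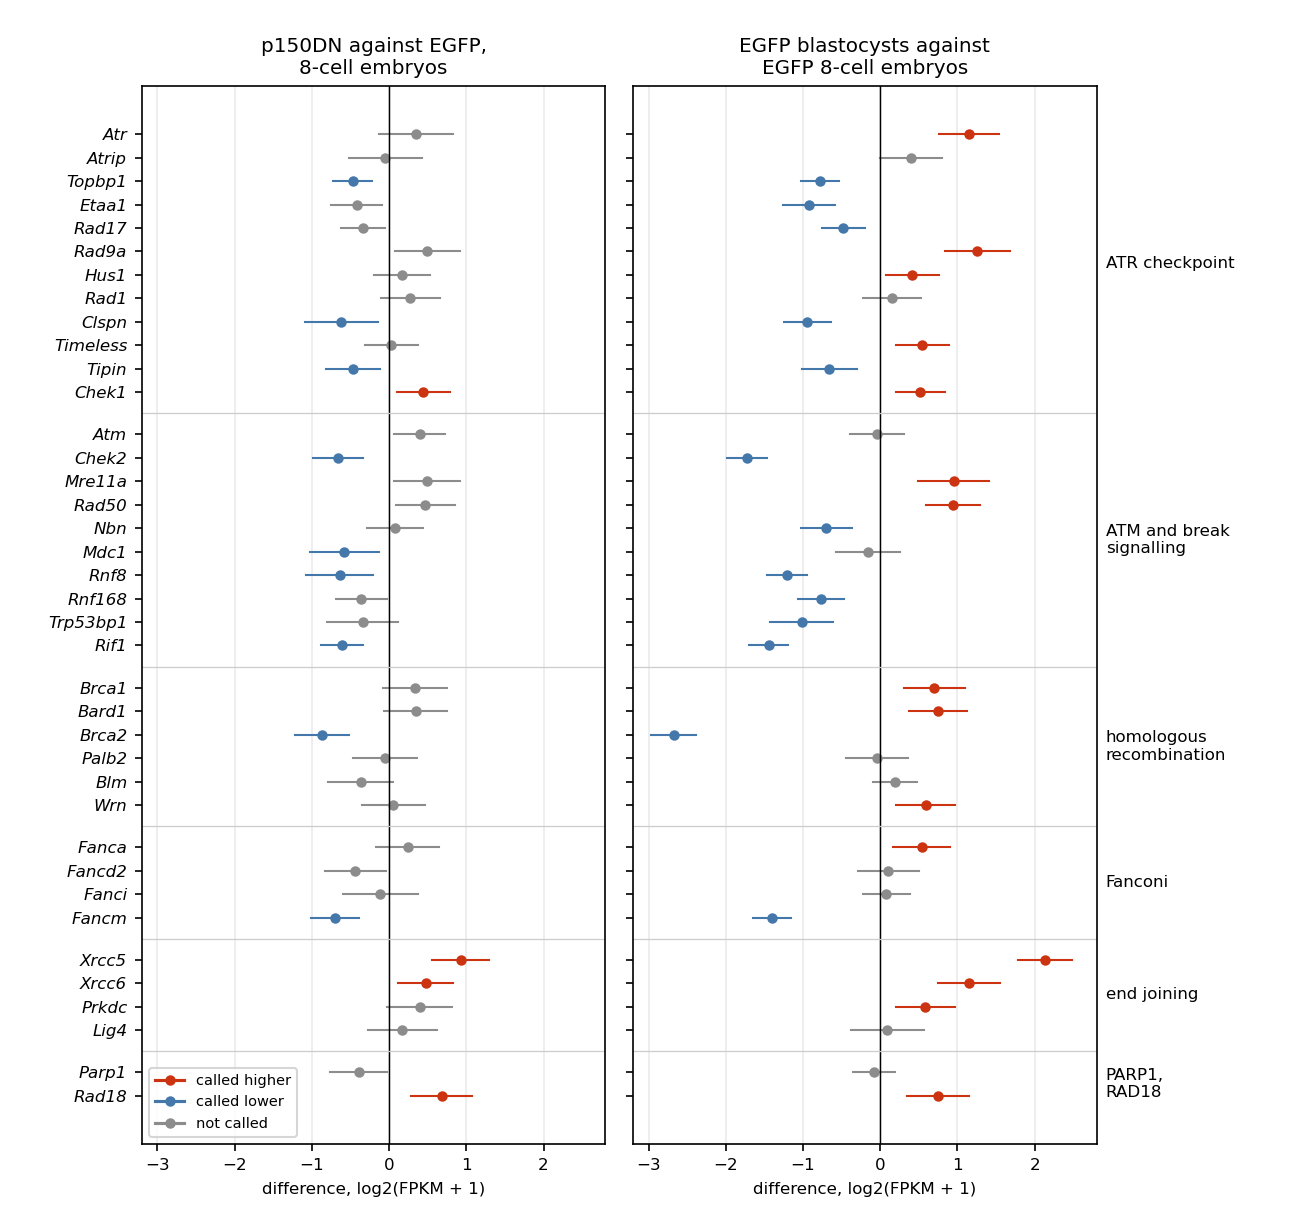
Differences on the log2(FPKM + 1) scale with 95% confidence intervals for the 38 genes, on the left p150DN against EGFP 8-cell embryos and on the right EGFP blastocysts against EGFP 8-cell embryos, coloured by call. On the left 4 genes are called higher and 9 lower, and on the right 15 higher and 13 lower, with Brca2 (-2.68) and Xrcc5 (2.13) at the ends.

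The counts were also set out by level. With a division at a mean of 20 FPKM over the 8 libraries, chosen after the values had been seen, 13 of the 38 genes lay above it. In p150DN embryos 9 of these 13 fell and 0 rose, and of the 25 genes below it 0 fell and 4 rose. Of all tested genes above the same level 18.5% fell and 20.8% rose, and of those below it 5.6% fell and 26.4% rose. Between the stages 10 of the 13 fell and 0 rose, and of the 25 genes 3 fell and 15 rose. Of the 25, Rad9a (mean 19.6 FPKM, called higher) and Rad17 (mean 19.4 FPKM, called lower) lay just below the division. A slightly lower division would therefore change the split between the stages. The mean also includes the libraries compared, so the division is not independent of the differences. Of all tested genes 34.5% fell and 35.7% rose above that level, and 20.7% fell and 45.7% rose below it. The median differences were -0.58 and 0.24 for p150DN, beside 0.02 and 0.27 for all tested genes above and below the same level, and -0.92 and 0.54 between the stages, beside 0.01 and 0.40.

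The start regions of genes that moved together were compared by sequence. A table of RefSeq promoter windows (assembly GRCm38.p6, 250 bases before to 50 bases after each gene's start) held 30 of the 38 genes, among them 7 of the 9 that fell in p150DN embryos. The E2F-type words TTTCCCGC, TTTCGCGC, TTTGCCGC and TTTGGCGC were searched on both strands. E2F factors bind such words at many replication and repair genes in the cell cycle. A word lay in a window of 7 of the 30 genes (23.3%) and in 744 of all 32851 windows (2.26%). This background counts windows, of which a gene can have several, and was not matched for base composition. Of the 7 genes that fell and had a window, 5 held a word, as did 2 of the 23 others. This split was not tested. It rests on calls from these same libraries, and those of Clspn and Mdc1 were each lost under 8 of 16 alternatives. The windows around the words are printed below because 5 of the genes that fell hold such a word. Capitals mark the word, and each line reads along the strand of the gene.
Brca2: tttaggccacaGCGGGAAAcagacacacac
Chek2: cgggattagccGCGGGAAAccaagacgtcg
Clspn: accgcgtctggGCGCGAAAgctcgaacttc
Topbp1: ccgctcggttgGCGCGAAAgtcggttcccg
Mdc1: tcttcagcctgTTTCCCGCcggtagccgca
Bard1: ccgccgctcagTTTCCCGCtcaggaagttt
Xrcc6: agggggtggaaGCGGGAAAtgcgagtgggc

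The start in the promoter table is that of a RefSeq transcript and need not be the edge of the gene span, which covers every transcript of the gene: it was the edge for 12 of the 30 genes, lay inside the span by 324 bases for Brca2 and by 28536 for Xrcc6. The printed pieces lay at chr5:150522442-150522471 (Brca2), chr5:110839820-110839849 (Chek2), chr4:126556990-126557019 (Clspn), chr9:103305187-103305216 (Topbp1) and chr17:35841471-35841500 (Mdc1), and at chr1:71103163-71103192 (Bard1) and chr15:82016312-82016341 (Xrcc6). Brca2, Chek2 and Xrcc6 carry the same word, GCGGGAAA in the direction of the gene, and Xrcc6 rose where the other two fell. Clspn and Topbp1 share GCGCGAAA, and Mdc1 and Bard1 carry TTTCCCGC. Other words were more frequent in all windows. CCAAT was found for 15 of the 30 genes (50%, against 37.41% of all windows), GGGCGG for 20 (66.7%, against 35.66%) and TTTGAA or TTTAAA for 5 (16.7%, against 27.59%). CCAAT was held by 5 of the 7 genes that fell and had a window, and by 10 of the 23 others. For GGGCGG these counts were 4 and 16, and for TTTGAA or TTTAAA 1 and 4. Rnf8 and Fancm fell without an E2F-type word in the window. For Fancm the start used lay 1493 bases inside the gene span, so the region at the edge of the span was not searched. A match is a description of letters, and binding was not measured in these libraries.

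Within the ATR checkpoint, the kinase and its subunit did not pass in p150DN embryos. Atr, whose gene spans chr9:95857597-95953217 (coordinates here are those of GRCm38.p6), was read at 2.86, 3.73 and 3.22 FPKM in EGFP 8-cell, 5.60, 3.41 and 4.47 in p150DN and 8.31 and 8.56 in blastocyst libraries. The blastocyst libraries were above all others and the 8-cell groups overlapped. Atr rose between the stages by 1.15 ± 0.17 (limma adjusted p = 0.000859), and its difference in p150DN embryos was 0.35 ± 0.21 (limma adjusted p = 0.223). Atrip, the subunit that brings ATR to coated single-stranded DNA, differed by -0.05 ± 0.21 and 0.40 ± 0.17 and was called in neither; its reads overlap the readthrough transcript Atrip-trex1, so its values are uncertain.

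Both activators of ATR fell between the stages, and Topbp1 also in p150DN embryos. Topbp1, on chr9:103305167-103350428, encodes the scaffold that activates ATR at the checkpoint clamp. Its level was 84, 94.5 and 88.2 FPKM in EGFP 8-cell, 65.5, 61.1 and 65.1 in p150DN and 50.7 and 52.2 in blastocyst libraries, 3 ranges that did not overlap. It fell by 0.47 ± 0.11 in p150DN embryos (limma adjusted p = 0.0123) and by 0.78 ± 0.10 between the stages (limma adjusted p = 0.000601). Without p150DN replicates 2 and 3 the call for p150DN was lost (limma adjusted p = 0.0858, the highest of a range of 0.00388 to 0.0858). Etaa1, the other activator of ATR, was at 29.1 ± 3.22, 21.5 ± 2.31 and 14.9 ± 1.42 FPKM in the same order (mean ± SD, n = 3, 3 and 2). It fell between the stages (-0.92 ± 0.14), and its p150DN value of -0.42 ± 0.15 missed the threshold (limma adjusted p = 0.053), although every p150DN library lay below every EGFP one.

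The checkpoint clamp and its loader did not move as 1 unit. Rad17, which loads the clamp, fell between the stages (-0.48 ± 0.12) from 22.9 ± 0.630 to 16.2 ± 0.193 FPKM, while p150DN libraries at 17.9 ± 0.205 FPKM gave -0.34 ± 0.12 (limma adjusted p = 0.0662). Of the 3 clamp genes, Rad9a rose between the stages from 12.8 ± 2.37 to 31.6 ± 2.62 FPKM (1.26 ± 0.18) and Hus1 from 9.82 ± 1.03 to 13.4 ± 0.543 FPKM (0.42 ± 0.15; limma adjusted p 0.0376 to 0.552 over the alternatives, lost under both scalings, with the replicate block and without EGFP 8-cell replicate 2 or 3 or either blastocyst replicate), whereas Rad1 differed by 0.16 ± 0.16 and was not called. None of the 3 was called in p150DN embryos, where the differences were 0.50 ± 0.18, 0.17 ± 0.16 and 0.27 ± 0.17. Rad9a reached into the strongly expressed gene Ppp1ca by 224 bases, and whether reads were counted by strand is not known, so its level is uncertain.

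At the fork itself, Clspn encodes the adaptor that hands CHEK1 to ATR. Clspn was read at 37, 40.8 and 33.9 FPKM in EGFP 8-cell, 17.5, 32.2 and 24 in p150DN and 17.9 and 19.7 in blastocyst libraries. All p150DN libraries lay below the EGFP 8-cell ones, p150DN replicate 2 only just. It fell by 0.62 ± 0.21 (limma adjusted p = 0.0468) and by 0.95 ± 0.13 between the stages (limma adjusted p = 0.000647), and the call for p150DN was lost under 8 of the 16 alternatives (limma adjusted p 0.00625 to 0.135), among them leaving out any 1 library except p150DN replicate 2. Timeless and Tipin encode the partners of a complex that holds the fork together. Tipin fell in p150DN embryos from 77.6 ± 11.1 to 55.9 ± 8.12 FPKM (-0.47 ± 0.16, limma adjusted p = 0.0455) and to 48.6 ± 5.37 in blastocysts (-0.66 ± 0.15). The call for p150DN was lost under 8 alternatives (limma adjusted p 0.0147 to 0.412), among them leaving out EGFP replicate 1 or 2 or p150DN replicate 2 or 3, and the call between the stages was lost without blastocyst replicate 1 (range 0.00207 to 0.0875). Timeless rose between the stages from 11 ± 1.20 to 16.5 ± 1.22 FPKM (0.55 ± 0.15), a call lost under both scalings and without either blastocyst replicate (limma adjusted p 0.00817 to 0.119), and differed by 0.03 ± 0.15 in p150DN embryos.

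Chek1, on chr9:36708482-36726658, encodes the effector kinase of the branch. Among the 12 ATR checkpoint genes followed here, before the wider list, Chek1 was the 1 that rose in p150DN embryos. It was read at 11.6, 12.4 and 13.5 FPKM in EGFP 8-cell, 18.8, 15.2 and 18.1 in p150DN and 17.4 and 19.2 in blastocyst libraries. The EGFP 8-cell libraries were the lowest and the other groups overlapped. The rise was 0.45 ± 0.15 in p150DN embryos (limma adjusted p = 0.0473) and 0.52 ± 0.14 between the stages (limma adjusted p = 0.0118). The first call was lost under 11 of the 16 alternatives (limma adjusted p 0.028 to 0.471), among them both scalings, the replicate block and leaving out any 1 library except p150DN replicate 2. The second was lost under both scalings and without blastocyst replicate 2 (limma adjusted p 0.0114 to 0.0932).

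Atm was called in neither comparison, and its effector gene Chek2 fell in both. Atm, on chr9:53437122-53536828, was read at 20.9, 27.9 and 24.7 FPKM in EGFP 8-cell, 35.1, 31 and 31 in p150DN and 23.6 and 23.4 in blastocyst libraries. The p150DN libraries were the highest, but the difference of 0.40 ± 0.15 was not called (limma adjusted p = 0.0643), and blastocysts differed by -0.04 ± 0.15. Chek2, on chr5:110839800-110874140, was read at 101, 112 and 97.7 FPKM in EGFP 8-cell, 63.9, 76.6 and 55.9 in p150DN and 30.2 and 30.8 in blastocyst libraries, with no overlap between the groups. It fell by 0.66 ± 0.14 in p150DN embryos (limma adjusted p = 0.00785), to 0.633 times the control mean, and by 1.73 ± 0.11 in blastocysts (limma adjusted p = 3.63e-05), to 0.295 times.

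The 3 genes of the complex that senses broken ends and activates ATM diverged between the stages. Mre11a, the nuclease gene, rose from 3.99 ± 0.790 to 8.56 ± 0.875 FPKM (0.95 ± 0.19, limma adjusted p = 0.00415), a call lost under quantile normalization and without blastocyst replicate 1 (range 0.00181 to 0.0614). Rad50, the gene of the tethering subunit, rose from 9.65 ± 0.943 to 19.4 ± 1.83 FPKM (0.94 ± 0.15, limma adjusted p = 0.00121). Nbn, the gene of the subunit that binds ATM, fell from 19.6 ± 1.46 to 11.7 ± 1.32 FPKM (-0.70 ± 0.14, limma adjusted p = 0.00362). In p150DN embryos none of the 3 was called: Mre11a and Rad50 were higher in every library (0.49 ± 0.19 and 0.47 ± 0.17, limma adjusted p = 0.0719 and 0.0594), and Nbn overlapped (0.08 ± 0.16).

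Downstream of ATM, 3 of the 5 genes of the chromatin response at breaks fell in p150DN embryos (Mdc1, Rnf8 and Rif1), where 9.68% of all tested genes fell, and 4 fell between the stages (Rnf8, Rnf168, Trp53bp1 and Rif1), where 24.9% of all fell. Mdc1, the adaptor that reads phosphorylated histone at breaks, was at 28.5, 33.7 and 23 FPKM in EGFP 8-cell, 16, 23.6 and 16.7 in p150DN and 23.4 and 26.6 in blastocyst libraries. It fell in p150DN embryos (-0.58 ± 0.20, limma adjusted p = 0.049) although p150DN replicate 2 lay above EGFP replicate 3, and blastocysts differed by -0.16 ± 0.17 without a call. The call for p150DN was lost under 8 alternatives (limma adjusted p 0.00883 to 0.154), among them leaving out EGFP replicate 1 or 2 or p150DN replicate 1 or 3. Rnf8, the first ubiquitin ligase of the response, fell from 81.1 ± 5.72 to 53.2 ± 15.8 FPKM in p150DN embryos (-0.64 ± 0.19, limma adjusted p = 0.0312) and to 34.5 ± 0.858 in blastocysts (-1.21 ± 0.11). The first call was lost under 8 alternatives (limma adjusted p 0.0028 to 0.115), among them leaving out any 1 library except p150DN replicate 2. Rnf8 overlaps the long noncoding gene Gm28043 over 26876 bases, so its values are uncertain. Rnf168, the second ligase, and Trp53bp1, which steers breaks away from resection, fell between the stages (-0.77 ± 0.13 and -1.02 ± 0.17) and gave -0.36 ± 0.15 and -0.34 ± 0.20 in p150DN embryos, where neither was called. The span of Trp53bp1 overlaps Tubgcp4 by 3936 bases and Map1a by 6765 bases, so its values are uncertain.

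Rif1, on chr2:52072815-52126769, acts with Trp53bp1 at breaks and also times replication origins. It was read at 151, 158 and 135 FPKM in EGFP 8-cell, 88.4, 106 and 96.8 in p150DN and 53.2 and 54.4 in blastocyst libraries. The 3 groups were fully separate, with EGFP 8-cell highest. Rif1 fell by 0.61 ± 0.12 in p150DN embryos (limma adjusted p = 0.00584), to 0.654 times the control mean, and by 1.44 ± 0.11 in blastocysts (limma adjusted p = 6.10e-05), to 0.363 times.

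Homologous recombination held the largest fall, and also several rises that were called between the stages only. Brca2, on chr5:150522297-150570147, loads the recombinase onto resected DNA. It was read at 99.4, 92.3 and 92.8 FPKM in EGFP 8-cell, 42.3, 63.2 and 50.8 in p150DN and 15.5 and 12.6 in blastocyst libraries. Each p150DN library lay between the control and blastocyst libraries, and no groups overlapped. Brca2 fell by 0.87 ± 0.15 in p150DN embryos (limma adjusted p = 0.00359), to 0.549 times the control mean. In blastocysts it fell by 2.68 ± 0.12 (limma adjusted p = 1.72e-05), to 0.148 times, the largest change among the 38 genes in either comparison.

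None of its partner genes was called lower in either comparison. Palb2, which links BRCA1 to BRCA2, was at 4.57 ± 0.615, 4.36 ± 0.540 and 4.37 ± 0.103 FPKM in EGFP 8-cell, p150DN and blastocyst libraries, with differences of -0.05 ± 0.18 (95% interval -0.47 to 0.36) and -0.04 ± 0.17 (95% interval -0.45 to 0.36). Brca1 and Bard1, which form 1 ubiquitin ligase, rose between the stages, Brca1 from 10.9 ± 1.86 to 18.2 ± 0.0441 FPKM (0.70 ± 0.17, limma adjusted p = 0.00777) and Bard1 from 5.08 ± 0.581 to 9.18 ± 0.332 FPKM (0.75 ± 0.16, limma adjusted p = 0.00508). In p150DN embryos they differed by 0.34 ± 0.18 and 0.34 ± 0.18 and were not called. Of the helicase genes, Blm was called in neither comparison (-0.37 ± 0.18 and 0.20 ± 0.12), and Wrn rose between the stages from 1.48 ± 0.0462 to 2.73 ± 0.268 FPKM (0.59 ± 0.16) but differed by 0.05 ± 0.18 in p150DN embryos. Of the calls between the stages, that of Brca1 was lost without either blastocyst replicate (limma adjusted p 0.00674 to 0.0722), that of Bard1 under quantile normalization and without blastocyst replicate 2 (range 0.00376 to 0.0773), and that of Wrn under quantile normalization and without blastocyst replicate 1 (range 0.000524 to 0.254).

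Among the 4 Fanconi genes, Fancm, on chr12:65074110-65131842, was the 1 that fell. FANCM is the translocase that recognises stalled forks and brings the Fanconi core complex to DNA. It was read at 87, 83.1 and 80.7 FPKM in EGFP 8-cell, 50.5, 59.6 and 43.8 in p150DN and 29.6 and 32.4 in blastocyst libraries, again 3 separate ranges. Fancm fell by 0.70 ± 0.14 in p150DN embryos (limma adjusted p = 0.00533) and by 1.40 ± 0.11 between the stages (limma adjusted p = 6.25e-05). Fanca, of the core complex, rose between the stages from 4.72 ± 0.413 to 7.28 ± 0.0404 FPKM (0.54 ± 0.16, limma adjusted p = 0.0184), a call lost under both scalings, with the replicate block and without either blastocyst replicate (range 0.0113 to 0.556). Fancd2 and Fanci, the pair that the core complex ubiquitinates, were called in neither comparison. Fancd2 was at 7.0, 8.55 and 6.39 FPKM in EGFP 8-cell and 5.19, 4.70 and 5.47 in p150DN libraries, lower in all 3 (-0.44 ± 0.18, limma adjusted p = 0.0849), and Fanci overlapped (-0.11 ± 0.21). The spans of Fanca, Fanci and Fancd2 overlap Zfp276, Polg and Fancd2os by 4258, 4036 and 260 bases, so their values are uncertain.

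Of the 4 end-joining genes among the 38, Xrcc5 and Xrcc6 were called higher in both comparisons, and none of the 4 was called lower in either. Xrcc5 and Xrcc6 encode the 2 subunits of the Ku ring that caps broken ends. Xrcc5, on chr1:72307417-72394953, was read at 3.74, 4.09 and 4.19 FPKM in EGFP 8-cell, 7.63, 8.95 and 9.0 in p150DN and 19.9 and 22.1 in blastocyst libraries. The EGFP 8-cell libraries were the lowest and blastocysts the highest, without overlap. Xrcc5 rose by 0.93 ± 0.17 in p150DN embryos (limma adjusted p = 0.00371), to 2.13 times the control mean, and by 2.13 ± 0.15 in blastocysts (limma adjusted p = 4.64e-05), to 5.24 times. Without p150DN replicates 2 and 3 the first call was lost (limma adjusted p = 0.0628, the highest of a range of 0.0011 to 0.0628).

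Xrcc6 rose as well. It was read at 8.70, 9.73 and 7.51 FPKM in EGFP 8-cell, 12.8, 11.9 and 12.2 in p150DN and 18.1 and 22.7 in blastocyst libraries, in the same order and without overlap. The differences were 0.47 ± 0.16 (limma adjusted p = 0.0449) and 1.15 ± 0.17 (limma adjusted p = 0.000917). The first call was lost under 10 of the 16 alternatives (limma adjusted p 0.0309 to 0.387), among them both scalings, the replicate block and leaving out any 1 library except EGFP replicate 2. The RefSeq span of Xrcc6 begins upstream of the start used in the promoter table and in this way covers Desi1, which was read at 4.48 to 8.82 FPKM and was called in neither comparison, so the values of Xrcc6 are uncertain. Prkdc, the kinase that Ku recruits, rose between the stages from 2.99 ± 0.0590 to 5.0 ± 0.573 FPKM (0.58 ± 0.16, limma adjusted p = 0.015; lost under both scalings and without blastocyst replicate 1, range 0.00773 to 0.472) and gave 0.40 ± 0.18 in p150DN embryos without a call. Lig4, the ligase of the pathway, was called in neither comparison (0.17 ± 0.20 and 0.09 ± 0.20).

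Rad18, the ubiquitin ligase that starts bypass of damaged template at the fork, rose in both comparisons. It was read at 5.46, 6.84 and 5.72 FPKM in EGFP 8-cell, 10.6, 8.74 and 11.5 in p150DN and 9.77 and 11.7 in blastocyst libraries. The EGFP 8-cell libraries were the lowest and the other groups overlapped. The rises were 0.68 ± 0.17 (limma adjusted p = 0.0166) and 0.75 ± 0.17 (limma adjusted p = 0.00637). The first was lost under both scalings and without EGFP replicate 1 or 3 or p150DN replicate 3 (range 0.00896 to 0.12), and the second under quantile normalization and without blastocyst replicate 2 (range 0.00515 to 0.0722). Parp1 was called in neither: p150DN libraries at 164, 107 and 132 FPKM overlapped with EGFP 8-cell libraries at 189.9, 158 and 176 (-0.39 ± 0.16, limma adjusted p = 0.0939), and blastocysts at 156 and 173 gave -0.08 ± 0.12.

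Ratios between partner transcripts within a library are unaffected by a factor applied to the whole library, as in median-of-ratios scaling, but can change under quantile normalization. The 10 pairs were chosen after their values had been seen, so the ratios are descriptions. No exact permutation test of a ratio passed (lowest p = 0.1 for p150DN and 0.2 between the stages). So few libraries allow no lower p-value in that test. The ratio of Chek2 to Chek1, effectors of the ATM and ATR branches, was 8.71, 9.03 and 7.25 in EGFP 8-cell libraries (mean 8.33 ± 0.947, ± SD), 3.39, 5.05 and 3.08 in p150DN libraries (mean 3.84 ± 1.06) and 1.73 and 1.61 in blastocysts (mean 1.67 ± 0.0881). The ratio was lower in every p150DN library than in every control, and lowest in blastocysts. The ratio of Brca2 to Palb2 was 21.1 ± 3.87, 12.1 ± 3.25 and 3.21 ± 0.381 in the same order, and that of Tipin to Timeless was 7.09 ± 1.05, 4.98 ± 0.658 and 2.97 ± 0.545, both without overlap between groups.

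Some partners came closer to equal levels, whereas Rad9a and Rad1 moved further apart between the stages. The ratio of Xrcc5 to Xrcc6 was 0.430, 0.421 and 0.558 in EGFP 8-cell, 0.594, 0.752 and 0.735 in p150DN and 1.10 and 0.971 in blastocyst libraries, where the 2 Ku transcripts were at about the same level. The ratio of Atr to Atrip was 0.592 ± 0.134, 0.823 ± 0.0478 and 1.10 ± 0.154 in the same order, without overlap. The ratio of Nbn to Mre11a was 5.07 ± 1.20, 3.52 ± 0.686 and 1.38 ± 0.295, with overlap between the 8-cell groups and none between the stages. The ratio of Rad9a to Rad1 overlapped between the 8-cell groups (3.39 ± 0.464 and 3.90 ± 0.713) and was 7.35 ± 0.0530 in blastocysts, above all others. By contrast the ratios of Brca1 to Bard1 (2.17 ± 0.469, 2.15 ± 0.692 and 1.99 ± 0.0766), Rad50 to Mre11a (2.49 ± 0.548, 2.31 ± 0.236 and 2.29 ± 0.448) and Fancd2 to Fanci (0.496 ± 0.0596, 0.387 ± 0.102 and 0.506 ± 0.0397) overlapped in both comparisons.

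**Figure D3:**
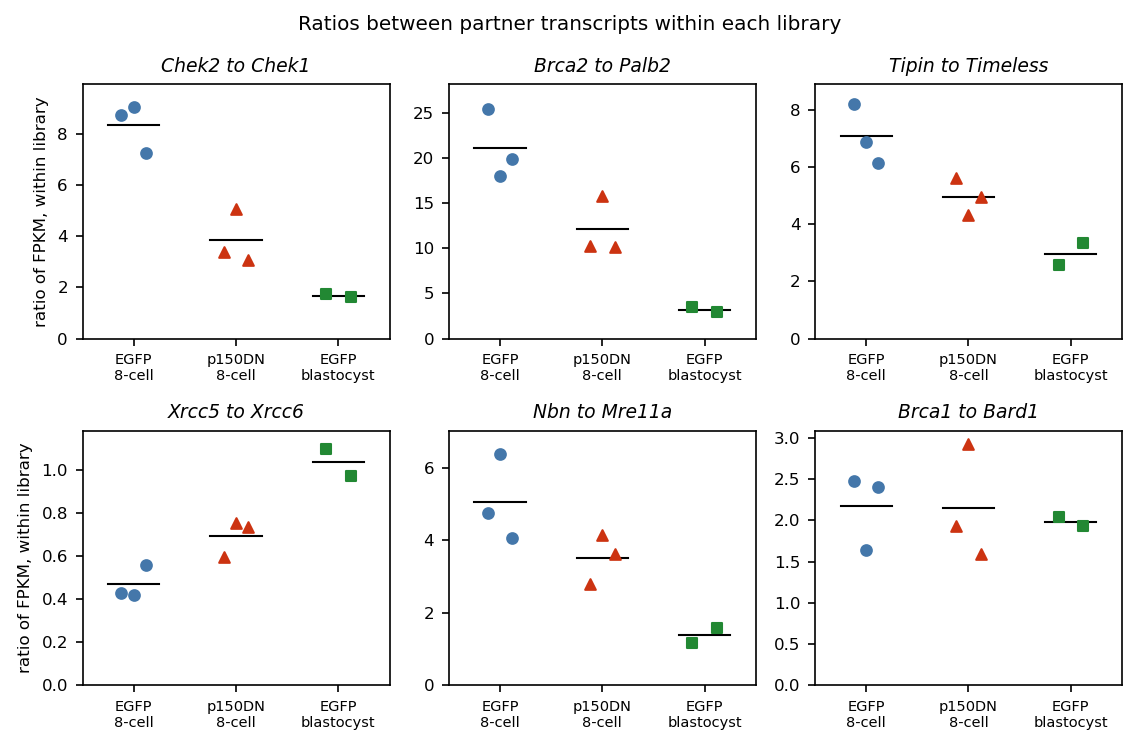
Ratio of FPKM between partner transcripts within each library for 6 pairs, 1 point per library, with bars at the group means. Chek2 to Chek1 (means 8.33, 3.84 and 1.67) and Xrcc5 to Xrcc6 (0.470, 0.694 and 1.04) separate the 3 groups in opposite directions, while Brca1 to Bard1 overlaps throughout.

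Other genes of the same pathways were taken as a wider list of 118, of which 114 were tested for p150DN and 116 between the stages. In p150DN embryos 24 rose (21.1%, against 24.6% of all tested genes) and 6 fell (5.26%, against 9.68%), with a median of 0.16. Between the stages 56 rose (48.3%, against 42.6%) and 14 fell (12.1%, against 24.9%), with a median of 0.40. By pathway, the counts of higher and lower in p150DN embryos were 3 and 0 of 19 for the ATR checkpoint, 5 and 0 of 19 for break signalling, 7 and 1 of 33 for homologous recombination, 5 and 3 of 17 for the Fanconi pathway, 2 and 2 of 12 for end joining, and 2 and 0 of 14 for the genes around Parp1 and Rad18.

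**Figure D4:**
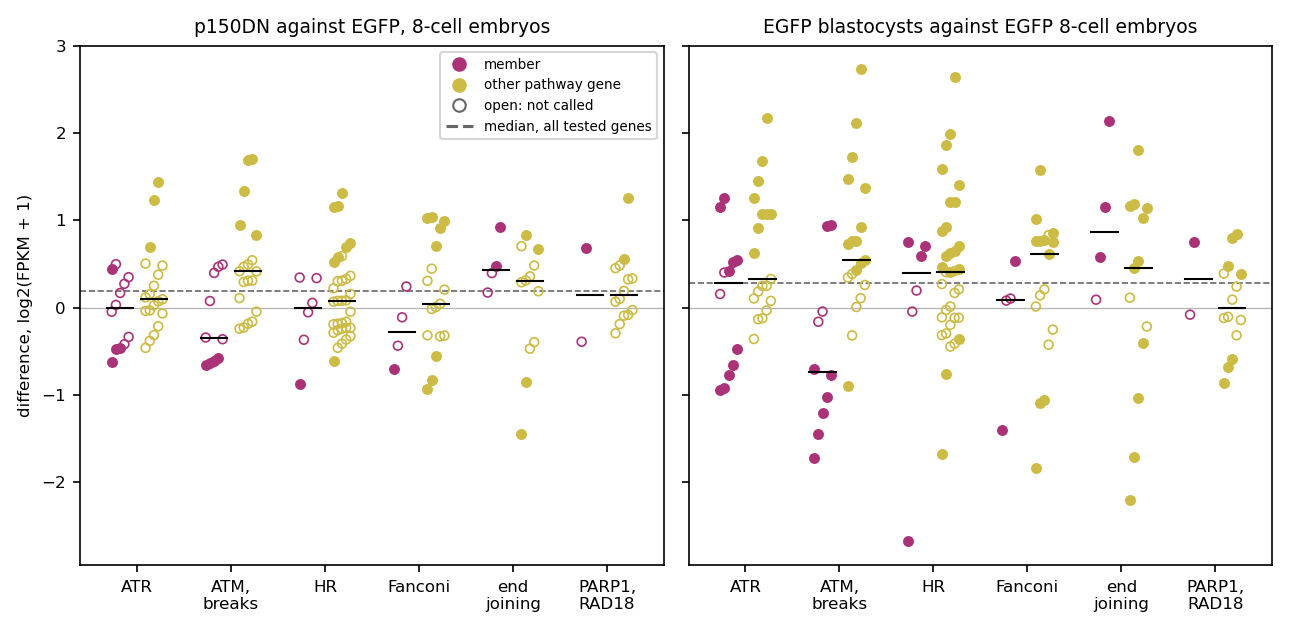
Differences on the log2(FPKM + 1) scale by pathway, for the 38 genes and for the other genes of each pathway, with filled points for called genes, bars at the medians and a dashed line at the median of all tested genes. In break signalling the 38-gene members lie lower (median -0.35 on the left) than the wider genes (median 0.42).

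The genes named from the wider list are those of largest change per pathway in p150DN embryos. Trp53, the gene of the p53 transcription factor that both branches phosphorylate, rose in p150DN embryos by 1.70 ± 0.20 (limma adjusted p = 0.000625), from 9.86 ± 1.92 to 34.2 ± 6.30 FPKM. Ppm1d, a phosphatase that turns the response off, rose by 1.33 ± 0.26, and Babam2, of the complex that restrains resection by BRCA1, by 1.69 ± 0.29. Rpa1, the large subunit of the protein that coats single-stranded DNA, rose by 1.44 ± 0.17 (limma adjusted p = 0.000747), from 6.89 ± 1.39 to 20.2 ± 1.22 FPKM, and the clamp loader subunits Rfc3 and Rfc2 by 1.23 ± 0.18 and 0.69 ± 0.14. Without p150DN replicates 2 and 3 the calls of Ppm1d (limma adjusted p 0.00261 to 0.141 over the alternatives) and Rfc2 (range 0.00202 to 0.0756) were lost, that of Rfc2 also under median-of-ratios scaling.

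In homologous recombination the gene of a single-strand binding protein, Nabp2 (1.31 ± 0.17), the nuclease scaffold gene Slx4 (1.16 ± 0.15) and Swi5 (1.15 ± 0.16) rose, and the topoisomerase gene Top3a fell (-0.61 ± 0.16). The Fanconi genes went both ways. Ercc4, a crosslink nuclease, Fancb and Faap20 rose (1.04 ± 0.23, 1.03 ± 0.27 and 0.99 ± 0.22). Their EGFP 8-cell levels were low, at 3.05 ± 0.857, 0.932 ± 0.571 and 2.42 ± 0.324 FPKM. Usp1, which removes ubiquitin from FANCD2, fell by 0.94 ± 0.17 (limma adjusted p = 0.0039), from 290.3 ± 11.1 to 154 ± 37.4 FPKM, as did the FANCM partners Faap24 (-0.83 ± 0.13) and Cenps (-0.55 ± 0.14). The calls of Ercc4, Fancb, Faap20, Cenps and Top3a were lost without p150DN replicates 2 and 3 (limma adjusted p up to 0.107, 0.142, 0.0681, 0.14 and 0.0871 over the alternatives). Without p150DN replicate 3 those of Top3a, Fancb and Cenps were lost, as were those of Top3a without EGFP replicate 1 or 3, Cenps without EGFP replicate 1 or 2, and Fancb without EGFP replicate 2 and with no filter on low values. Quantile normalization ended the calls of Fancb and Faap20.

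In end joining, Mad2l2, of the complex that limits resection, fell by 1.45 ± 0.22 (limma adjusted p = 0.00189), from 56.5 ± 7.84 to 20.6 ± 7.04 FPKM, while Shld2 of the same complex rose (0.84 ± 0.19) from a low level, 1.36 ± 0.242 FPKM. Polq, the polymerase of an alternative joining route, fell (-0.85 ± 0.21). Tdp1, which clears trapped topoisomerase, rose (0.67 ± 0.19), also from a low level, 1.59 ± 0.142 FPKM. The bypass polymerase gene Polk and the nick repair scaffold gene Xrcc1 rose (1.25 ± 0.21 and 0.56 ± 0.15). The calls of Shld2, Polq, Tdp1, Polk and Xrcc1 were lost without p150DN replicates 2 and 3 (limma adjusted p up to 0.101, 0.0549, 0.364, 0.069 and 0.251 over the alternatives). The call of Tdp1 was lost under 9 of its 15 alternatives, among them both scalings, no filter on low values, and leaving out any 1 library except p150DN replicate 2. That of Xrcc1 was lost under median-of-ratios scaling and without EGFP replicate 1 or 2 or p150DN replicate 3, that of Polq without EGFP replicate 1 or 2, and that of Shld2 under quantile normalization. Between the stages Trp53 differed by 2.11 ± 0.18, Rpa1 by 2.18 ± 0.19, Usp1 by -1.84 ± 0.11 and Mad2l2 by -2.20 ± 0.14.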

How the data were processed

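Of the 73 samples of the series, the 8 RNA-seq libraries were used, and 65 samples of other assays were not analysed here. Per the labels' protocols, a stranded SMART-seq kit was used on total RNA of cell lysates. The submitters' processing notes name Trim Galore, HISAT2, Bowtie2, SAMtools, featureCounts and the build mm10 without versions or roles. Annotation and strand setting of counting were not given in the sources used here. The authors deposited FPKM values for 25220 gene symbols, 1 column per library. Columns named only for 8-cell embryos were taken as the EGFP 8-cell libraries, since the labels name no other 8-cell RNA group without p150DN.

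Sequencing depth was recovered from FPKM times gene length, which gave whole fragments for 23314 of 23316 genes above 0 within 0.02 fragments. limma 3.58.1 in R 4.3.3 (eBayes with a trend, two-sided) was run on log2(FPKM + 1), for genes that reached 1 FPKM in 3 or more libraries (p150DN) or in 2 or more (stages), which all 38 genes did. Each comparison used its own groups only, and the script was tested on simulated data. Coordinates and promoter windows are those of RefSeq, GRCm38.p6, the assembly of mm10; 24920 symbols matched. Alternatives covered the pseudocount, the filter, the scaling, the fit, the replicate block and each library left out, and leaving out p150DN replicates 2 and 3 was added after the data were seen. All 38 genes are named, and of the wider list up to 3 per pathway and direction, called without overlap in p150DN. The genes, lists and tests were chosen with earlier results of these data known.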

Additional observations from a re-analysis of the deposited data

How the results depend on the processing

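Of the 13 genes called in p150DN embryos, 4 stayed called under all 16 alternatives and 9 lost the call under at least 1, and 11 of the 25 others gained it under at least 1. Between the stages 17 of 28 stayed called under all 14. In neither comparison did a called gene change sign. For p150DN the number of members called was 7 with no filter on low values and 8 with eBayes without a trend, against 13. Leaving out 1 library gave 6 to 14. All genes called numbered 4023, 2441 to 4071 with 1 library left out (2441 without EGFP replicate 1 and 2610 without p150DN replicate 3) and 1913 without p150DN replicates 2 and 3. Between the stages leaving out 1 library gave 6018 to 8144 genes and 20 to 28 members.

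Deviations of same-numbered libraries from their group means correlated at 0.06, 0.10 and 0.04 for p150DN and at -0.03 and -0.02 between the stages. Differently numbered libraries correlated at -0.12 to 0.08 for p150DN. Deviations within groups of 3 or 2 are tied to one another, so these values cannot exclude a pairing by replicate number. With the replicate block, 4081 genes and 12 members (2 higher, 10 lower) were called for p150DN, and 7861 genes and 26 members between the stages.

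The sign changed for 15 genes, none of them called in that comparison, and the cause was not tested. For p150DN under median-of-ratios scaling the differences were Hus1 -0.099, Timeless -0.24, Nbn -0.20, Wrn -0.12, Fanca -0.0051 and Lig4 -0.064. Under quantile normalization they were Atr -0.050, Hus1 -0.087, Rad1 -0.11, Timeless -0.22, Nbn -0.022, Bard1 -0.0023, Wrn -0.34, Fanca -0.11 and Lig4 -0.20. With 1 library left out, Timeless ranged from -0.023 (without EGFP replicate 1) to 0.11, Palb2 from -0.14 to 0.018 (without EGFP replicate 2), and, at their ends without p150DN replicate 2, Atrip from -0.19 to 0.14, Nbn from -0.0051 to 0.22 and Fanci from -0.27 to 0.13. Without p150DN replicates 2 and 3, Atrip, Nbn and Fanci were at 0.24, -0.20 and 0.21. Between the stages, median-of-ratios scaling gave Rad1 -0.028, Blm -0.024, Fancd2 -0.098, Fanci -0.13 and Lig4 -0.093, and quantile normalization gave Rad1 -0.29, Fancd2 -0.29, Fanci -0.17 and Lig4 -0.35. With 1 library left out, Atm ranged from -0.15 to 0.051 and Palb2 up to 0.027, both changing sign without EGFP 8-cell replicate 2, and Lig4 from -0.031 (without EGFP 8-cell replicate 1) to 0.23.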

Other observations

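Starts were taken from the RefSeq promoter table, which holds 30 of the 38 genes, and can lie inside the gene span. Of these 30 genes, 10 start 37 to 376 bases from the start of a gene on the opposite strand. The rest of the 38 genes could not be searched. Such pairs did not always share a direction. Mre11a lies 81 bases from Ankrd49, and both were called higher in blastocysts (0.95 and 0.78 ± 0.25). Brca1 lies 152 bases from Nbr1, and both were called higher (0.70 and 0.38 ± 0.11). Rad17 lies 282 bases from Ak6, and both were called lower (-0.48 and -0.85 ± 0.13). Etaa1, 95 bases from Etaa1os, was called lower (-0.92) while the neighbour was called higher (0.91 ± 0.17) from a mean of 0.194 FPKM. Rad1 was not called (0.16) beside Brix1, 81 bases away, which was called lower (-0.58 ± 0.11). The difference between neighbours was not tested, and whether reads were counted by strand is not known.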
